A study of Mus musculus with 6 samples.

Results

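The genes described here belong to 7 solute carrier families that hold most amino acid transporters of mammalian cells: SLC1, SLC3, SLC6, SLC7, SLC36, SLC38 and SLC43. They were chosen by gene symbol, and 65 of 23185 named genes on the array matched. Of these, 62 are carriers or carrier subunits and 3 carry the suffix os for opposite strand: Slc7a6os, which is protein coding, and the long noncoding RNAs Slc6a19os and Slc36a1os. The values are log2 RMA expression values, 1 per gene and array. Every sample came from 1 line of group 2 innate lymphoid cells (ILC2s), lymphocytes of the type 2 response with no rearranged antigen receptor, of C57BL/6J origin and grown with IL-2 plus IL-33 (10 ng/ml). The cells were transduced with the lentiviral construct LentiV2CRISPRGFP, which carried either a non-target guide (genotype Non-target Control, 3 arrays) or a guide to Myc (genotype Myc knock out, 3 arrays), and the GFP+ cells were sorted on day 6. The sorted cells were thus a transduced population, and neither the share with an edited allele nor the age of the mice is given in the sources used here. Nothing in the labels says that the 3 arrays of a group stem from separate cultures, so the p-values below measure the spread between these arrays, which may be technical.

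Amino acid transporters import the building blocks of protein and the nitrogen and carbon used for nucleotides, and activated lymphocytes depend on them when they grow. SLC3A2 is a heavy chain that brings several SLC7 light chains to the cell surface, where some of them exchange intracellular glutamine for large neutral amino acids such as leucine. SLC1A5 and the SLC38 carriers supply glutamine, SLC7A1 and SLC7A3 carry arginine and lysine, and several SLC36 and SLC38 proteins work at the lysosome, where amino acid levels are reported to mTORC1. MYC is known as an activator of several of these genes in other lymphocytes, and ATF4 raises many of them when amino acids are short. The comparison asks which of them differ between cells given the Myc guide and cells given the control guide.

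Myc itself checks the labels. The 3 control arrays gave log2 values of 9.27, 9.33 and 9.39 for it, against 9.55, 9.79 and 9.73 under the Myc label, so it was higher, not lower, in every array so labelled (log2 difference 0.36 ± 0.080, SE; limma's adjusted p = 0.127). Because the level goes against the label, although an edit need not lower an mRNA, groups are called by label and every direction rests on it. Array medians ran from 3.27 to 3.34. Of 17 measured ILC2 markers, 16 were above the background level defined below, the exception being Il17rb. Of the markers of other cells, 5 of 9 for T cells, 1 of 5 for B cells, 4 of 7 for NK cells and ILC1s, 1 of 3 for ILC3s, 1 of 9 for myeloid and mast cells and 3 of 6 for neural cells were above it. Near it were the defining Cd3e, Cd79a, Ncr1, Il22 and Csf1r. Of those above it on the mean of all arrays, Klrk1 of NK cells (log2 difference 0.68) and Il17a of ILC3s (0.95) rose under the Myc label, with limma's adjusted p = 0.0473 and 0.0353. Their control means (3.08 and 2.84) lay below the background level. Only their means under the Myc label (3.76 and 3.79) lay above it. Gzma of NK cells (0.33), Cd3g of T cells (−0.43) and Itgam of myeloid cells (−0.63) had groups that did not overlap but did not pass. The log2 of the summed level did not overlap between groups for ILC2 markers (13.2 to 13.3 in controls, 13.3 to 13.4 under the Myc label), ILC3 markers (3.50 to 3.69 in controls, 4.22 to 4.34 under the Myc label), NK cell and ILC1 markers (8.14 to 8.30, then 8.32 to 8.46) and myeloid and mast cell markers (6.97 to 7.15, then 6.51 to 6.72). Each sum follows the brightest genes of its list. For ILC3 markers and for myeloid and mast cell markers only 1 gene was above background, Il17a and Itgam, both given above. Of the 9 myeloid and mast cell differences 4 were positive, among them Ms4a2 (0.23, near background, groups without overlap). Of the 16 ILC2 markers above background, 8 had positive and 8 negative differences. Of these, Il5 (log2 difference 0.49) passed with a higher level and Il9r (−0.55) with a lower one, with limma's adjusted p = 0.0386 and 0.0405. The part of these markers in the differences below was not tested. In a bulk sample, fewer cells of a type and less RNA per cell cannot be told apart.

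The starts of these genes were searched for motifs that MYC and ATF4 are known to bind. RefSeq promoter windows on GRCm38.p6, each 250 bases before to 50 after a start, were at hand for 48 of the 65 genes. Slc7a5, Slc1a5, Slc38a1 and Slc6a6 were among the genes without a window, so neither motif could be looked for there. The E-box CACGTG, which the MYC:MAX dimer binds and which reads the same on both strands, was in a window of 9 of the 48 (18.8%), against 8.09% of all 27025 genes and 8.91% of 17491 protein-coding genes in the table. The amino acid response element TTGCATCA, searched on both strands, was in 3 of 48 (6.25%: Slc1a4, Slc7a7 and Slc7a11), against 1.03% of all genes and 1.01% of protein-coding ones. Some genes have several windows. Counted by window, the shares were 13.0% against 7.15% of all windows for the E-box and 5.80% against 0.895% for the response element. No gene of the 48 held both motifs, the differences in share were not tested, and a match describes letters, not a bound site. Of the 9 genes with an E-box, 4 were above background on the array (Slc36a1, Slc38a7, Slc6a3 and Slc7a14) and 5 were near it. Neither motif was in the windows of Slc43a2, Slc38a9, Slc6a5 or Slc3a2, which says nothing of other positions. The stretches below show the E-boxes of Slc36a1 and Slc38a7, carriers at the lysosome whose values are given below, and the response elements of Slc1a4 and of Slc7a11, which has a pair of them on opposite strands. Capitals mark the motifs.
Slc36a1 (chr11:55204249-55204342, + strand): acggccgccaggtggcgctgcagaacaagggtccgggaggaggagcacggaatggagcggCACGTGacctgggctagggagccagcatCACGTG
Slc38a7 (chr8:95853492-95853585, - strand): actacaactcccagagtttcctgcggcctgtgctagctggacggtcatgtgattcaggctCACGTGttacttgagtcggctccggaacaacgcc
Slc1a4 (chr11:20332710-20332777, - strand): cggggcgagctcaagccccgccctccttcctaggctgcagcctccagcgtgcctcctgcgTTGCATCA
Slc7a11 (chr3:50443614-50443739, - strand): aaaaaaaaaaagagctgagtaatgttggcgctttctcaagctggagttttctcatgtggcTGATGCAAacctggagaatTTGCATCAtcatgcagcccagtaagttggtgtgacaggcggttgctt

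The 65 transporter genes were split between 30 above background and 35 near it, beside 12184 and 11001 of all 23185 named genes. The background level was set at 3.16, the 95th percentile of the mean level of 1354 olfactory and vomeronasal receptor genes, which lymphocytes are not known to use, and 30 of the 65 genes lay above it on the mean of all 6 arrays. Just above it were Slc6a4 and Slc6a20a (both 3.18) and Slc6a17 (3.43), and just below it were Slc7a10 (3.05), Slc1a7 (2.94) and Slc7a11 (2.93). Those above background held the SLC3A2 heavy chain, 3 of the 10 SLC7 light chains, both neutral exchangers of SLC1, 7 of 11 SLC38 genes, and all 4 carriers of glycine, taurine and creatine. The 5 glutamate carriers of SLC1, the 3 carriers of GABA and betaine and the 2 SLC6 orphans were near background throughout. A probe set's level also depends on its probes, so levels were set against background and not ranked between genes.

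**Figure D1:**
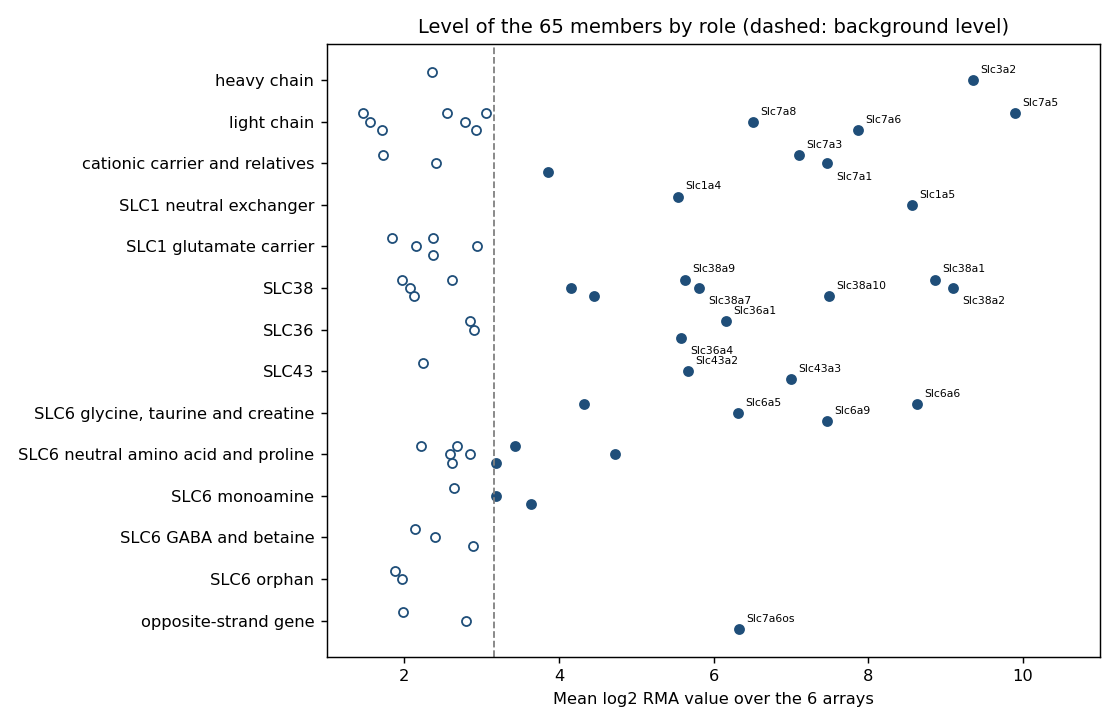
Mean log2 RMA value over the 6 arrays (x axis) for each of the 65 genes, grouped by role (y axis); filled points are the 30 above the background level of 3.16 (dashed line) and open points the 35 near it. Slc3a2, Slc7a5, Slc38a1, Slc38a2, Slc1a5 and Slc6a6 lie well to the right of the line, and every SLC1 glutamate carrier lies left of it.

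No transporter gene passed the test between the groups. In limma's fit, 0 of 65 had an adjusted p under 0.05, where 0.453% of all named genes did (0.254% higher and 0.198% lower in the arrays labelled Myc knockout). The same holds for the 30 above background, beside 0.821% of the 12184 named genes above background (0.443% higher, 0.378% lower). An unadjusted p under 0.05 was reached by 11 of the 65 (14.9% of all named genes), 3 with a higher level (6.97%) and 8 with a lower one (7.91%). Among the 30 above background it was reached by 7 (21.0% of named genes above background), Slc43a3 with a higher level (3.33%, beside 7.70%) and 6 with a lower one (20.0%, beside 13.3%).

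Separation of the groups gave a like picture. Of the 65 genes, 11 had groups that did not overlap (19.8% of all named genes), 3 with the arrays labelled Myc knockout higher (9.25%) and 8 with them lower (10.6%). Of the 30 above background it was 9 (28.6% of named genes above background). The 3 higher ones were Slc7a1, Slc38a2 and Slc43a3 (10.7%), and the 6 lower ones were Slc6a5, Slc6a9, Slc6a19, Slc36a1, Slc38a9 and Slc43a2 (17.9%). The median log2 difference of the 30 was −0.026, beside −0.027 for all named genes above background, and 20 of 30 (66.7%) were negative, beside 57.4%. Without control replicate 1, only 3 of the 30 were lower and 2 higher at an unadjusted p under 0.05 in limma, and the median was 0.0046. Without control replicate 2 the median was −0.056. None of the 30 was higher at that p without control replicate 2, control replicate 3 or replicate 1 under the Myc label. The share of all named genes that reached it without single arrays is not given here.

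**Figure D2:**
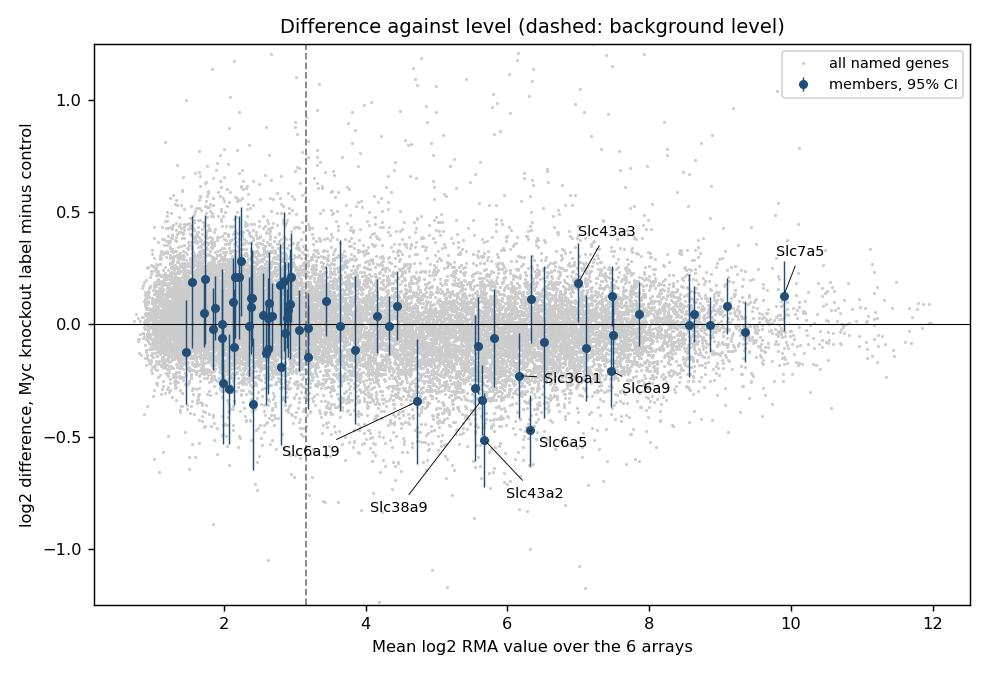
log2 difference, arrays labelled Myc knockout minus control (y axis), against the mean log2 value over the 6 arrays (x axis): grey points are all named genes (29 lie outside the plotted range), blue points the 65 transporter genes with 95% confidence intervals, and the dashed line the background level. The brightest transporters lie close to 0, and the lowest points above background are Slc43a2, Slc6a5, Slc6a19 and Slc38a9.

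At the mRNA level, neither gene of the surface complex that imports leucine, Slc3a2 or Slc7a5, passed the test. Slc3a2, the shared heavy chain (also known as CD98), read 9.43, 9.34 and 9.33 in controls, then 9.32, 9.34 and 9.34 under the Myc label, a log2 difference of −0.034 with a 95% confidence interval from −0.17 to 0.10. The groups overlapped, and the interval gives the range of change that these 6 arrays leave for it. Its main partner in activated lymphocytes, the leucine carrier Slc7a5 (LAT1), read 9.83, 9.80 and 9.88 in the controls and 10.03, 9.87 and 9.98 under the Myc label. Here 1 array with the Myc label lay within the control range and the others above it, and the difference of 0.13 ± 0.065 (SE; interval −0.029 to 0.28) did not pass, with limma's adjusted p = 0.413. Slc7a6, which exchanges cationic for neutral amino acids, read 7.83, 7.84 and 7.84, then 7.91, 7.94 and 7.80, with overlapping groups and a difference of 0.045 ± 0.060.

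The other light chains were either variable or dim. Slc7a8 (LAT2), a carrier of neutral amino acids, spread from 6.41 to 6.78 in the controls and from 6.29 to 6.71 under the Myc label, and its difference of −0.080 had an interval from −0.42 to 0.26. That width leaves a change of either sign possible. Slc7a11 (xCT), the cystine carrier whose paired response elements are printed above, read 2.96, 2.81 and 2.89 in the controls and 3.16, 2.98 and 2.80 under the Myc label, close to the background level in both groups. The 7 light chains near background, Slc7a11 among them, lay at mean levels of 1.46 to 3.05 with differences from −0.12 to 0.19. Slc3a1, the heavy chain of the kidney cystine carrier, was also near background (mean 2.36, difference −0.0090).

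Carriers of cationic amino acids did not pass in either direction. Slc7a1 (CAT1), the widespread importer of arginine and lysine, read 7.45, 7.37 and 7.40 in controls, then 7.57, 7.50 and 7.53 under the Myc label. All 3 arrays with the Myc label lay above all controls, a difference of 0.13 ± 0.056 (SE; limma's adjusted p = 0.357). Slc7a3 (CAT3), a related importer, read 7.10, 7.21 and 7.17, then 7.06, 6.87 and 7.24, so that its groups overlapped (−0.10 ± 0.099). Slc7a14 overlapped as well (−0.11 ± 0.14). Slc7a2 and Slc7a4 were near background.

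Of the glutamine carriers at the surface, none passed the test. Slc38a1 (SNAT1), a sodium-coupled importer, read 8.88, 8.83 and 8.86 in the controls and 8.86, 8.84 and 8.87 under the Myc label, the smallest difference of the 30 genes at −0.0012 (95% interval −0.13 to 0.12). Slc38a2 (SNAT2), which cells raise when amino acids are short, read 9.05, 9.05 and 9.06 in the controls and 9.10, 9.14 and 9.17 under the Myc label. Its groups did not overlap, yet the difference was only 0.082 ± 0.053 (SE; limma's adjusted p = 0.507). Slc1a5 (ASCT2), the neutral amino acid exchanger best known for glutamine, read 8.76, 8.45 and 8.49, then 8.63, 8.51 and 8.53, with a difference of −0.0045 and an interval from −0.23 to 0.23. Control replicate 1 stood above the other Slc1a5 values, and without it the difference was 0.092. Slc1a4 (ASCT1), the related exchanger of alanine, serine and cysteine with a response element at its start, read 5.81, 5.52 and 5.71, then 5.52, 5.54 and 5.12. Replicate 3 of the arrays labelled Myc knockout was the lowest, the groups overlapped, and the difference of −0.28 ± 0.14 (SE; limma's adjusted p = 0.385) was −0.15 without that array.

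**Figure D3:**
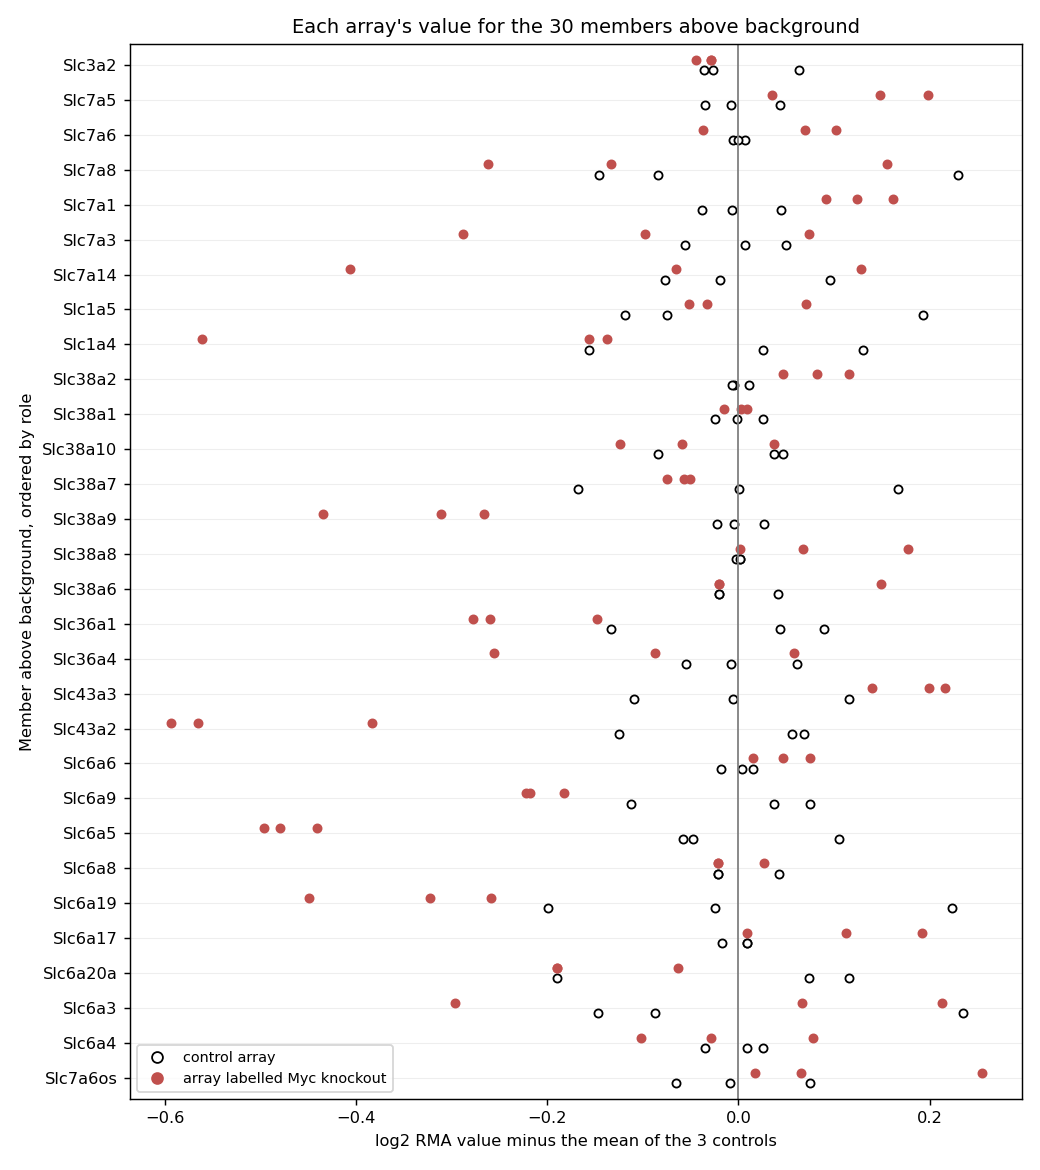
Each array's log2 value minus the mean of the 3 controls (x axis) for the 30 transporter genes above background (y axis, ordered by role); open circles are controls and filled circles arrays labelled Myc knockout. The filled circles of Slc43a2, Slc6a5, Slc38a9, Slc6a9, Slc36a1 and Slc6a19 lie left of all their open circles, and those of Slc7a1, Slc38a2 and Slc43a3 right of them.

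At the lysosome, Slc38a9 and Slc36a1 were lower under the Myc label at an unadjusted p under 0.05, and neither passed after adjustment. Slc38a9, a lysosomal arginine sensor that signals to mTORC1, read 5.80, 5.78 and 5.83 in the controls and 5.49, 5.54 and 5.37 under the Myc label. The groups were clearly apart, with a 1.26-fold lower level (difference −0.34 ± 0.065, SE; limma's adjusted p = 0.0972). Slc36a1 (PAT1), which exports small amino acids from the lysosome together with protons and has 2 E-boxes at its start, read 6.31, 6.14 and 6.36, then 6.01, 5.99 and 6.12. The highest array with the Myc label lay just under the lowest control, and the difference was −0.23 ± 0.079 (limma's adjusted p = 0.267). Slc38a7, a lysosomal glutamine and asparagine carrier with 1 E-box, read 6.01, 5.67 and 5.84, then 5.76, 5.78 and 5.79, and the groups overlapped (−0.061 ± 0.091). Slc36a4, a relative that carries proline and tryptophan, read 5.69, 5.58 and 5.62, then 5.38, 5.54 and 5.69, and overlapped too (−0.095 ± 0.090). The remaining SLC38 genes above background, Slc38a10, Slc38a8 and Slc38a6, differed by −0.049 ± 0.070, 0.082 ± 0.064 and 0.036 ± 0.069 with overlapping groups.

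The SLC43 family held the largest difference of the 30 genes and the only 1 higher at an unadjusted p under 0.05. Slc43a2 (LAT4), a sodium-independent carrier of large neutral amino acids such as leucine and phenylalanine, read 6.00, 5.99 and 5.81 in controls, then 5.34, 5.55 and 5.36 under the Myc label. Every array with the Myc label lay well below every control, a 1.43-fold lower level (95% interval 1.24 to 1.65; difference −0.51 ± 0.087, SE), with limma's adjusted p = 0.0767. Slc43a3, a purine nucleobase carrier and not an amino acid transporter in spite of its family, read 7.02, 6.80 and 6.90 in the controls and 7.10, 7.12 and 7.05 under the Myc label. Its groups lay just apart, with a difference of 0.18 ± 0.073 (limma's adjusted p = 0.314). Slc43a1 (LAT3), also a leucine carrier, was near background (mean 2.24, difference 0.28 ± 0.10).

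Both glycine carriers of the SLC6 family were lower under the Myc label at an unadjusted p under 0.05, and neither passed after adjustment. Slc6a5 (GlyT2), known for taking up glycine in inhibitory neurons, read 6.49, 6.50 and 6.65 in controls, then 6.05, 6.11 and 6.07 under the Myc label. The groups were far apart against their spread, a 1.39-fold lower level (95% interval 1.24 to 1.55; difference −0.47 ± 0.066, SE), and limma's adjusted p of 0.0514 was the smallest of all 65 genes. The summed log2 level of neural markers overlapped (6.05 to 6.13 in controls, 6.04 to 6.08 under the Myc label), with Syp, Rbfox3 and Mbp above background (log2 differences −0.047, 0.048 and 0.050) and Snap25, Gfap and Tubb3 near it. Slc6a9 (GlyT1), the widespread glycine carrier, read 7.64, 7.46 and 7.61, then 7.39, 7.35 and 7.35, without overlap (−0.21 ± 0.068; limma's adjusted p = 0.247).

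Of the other SLC6 carriers, 1 more was lower at an unadjusted p under 0.05. Slc6a19 (B0AT1), the neutral amino acid carrier of gut and kidney, read 5.12, 4.87 and 4.70 in the controls and 4.45, 4.57 and 4.64 under the Myc label, a difference of −0.34 ± 0.12 (limma's adjusted p = 0.258). The controls spread widely and the groups were barely apart. Slc6a19os, whose gene overlaps Slc6a19 in the RefSeq table, was near background (mean 2.80, difference −0.19). Slc6a6, the taurine carrier, read 8.61, 8.62 and 8.59, then 8.65, 8.62 and 8.68, with overlapping groups and an interval from −0.080 to 0.17. The creatine carrier Slc6a8, with 4 of 6 arrays at the same value of 4.30, differed by −0.0052 ± 0.054. Slc6a17 (0.10 ± 0.065), Slc6a20a (−0.15 ± 0.096), the dopamine carrier Slc6a3 (−0.0054 ± 0.16) and the serotonin carrier Slc6a4 (−0.018 ± 0.066) were dim and overlapped between groups. Slc7a6os, which is no transporter, overlapped too (0.11 ± 0.082).

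Calls for 3 genes changed with the settings of the fit. In limma's fit 3 of the 65 genes, Slc6a5, Slc43a2 and Slc38a9, passed at an adjusted p under 0.1, all lower, beside 1.78% of all named genes (0.798% higher, 0.983% lower) and 3.04% of those above background (1.24% higher, 1.81% lower). With genes below the median brightness left out they passed at 0.05 (limma's adjusted p = 0.0152, 0.0249 and 0.0339), and with an intensity trend in the variance Slc6a5 and Slc43a2 did (0.0212 and 0.0409) but Slc38a9 did not (0.0545). Slc6a5 also passed with each array centred on its median (limma's adjusted p = 0.0396). Other settings weakened the calls. With same-numbered arrays as a block, limma's adjusted p of Slc6a5, Slc43a2 and Slc38a9 was 0.1841, 0.1819 and 0.2465. Under cyclic loess it was 0.0660, 0.0850 and 0.134. The share of all named genes that passed under these other settings is not given here. Leaving out any 1 array kept the log2 differences of Slc6a5, Slc43a2 and Slc38a9 between −0.50 and −0.42, −0.58 and −0.47, and −0.37 and −0.29. The adjusted p in limma was then 0.137 to 0.259.

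The 35 genes near background cannot show a lack of change. Their differences ran from −0.36 to 0.28, and 22 of 35 (62.9%) were positive with a median of 0.042, as were 62.9% of all named genes near background (median 0.040). For comparison, the median difference of the 1354 olfactory and vomeronasal receptor genes was 0.10, with 199 of them higher and 13 lower at that unadjusted p in limma. Among the 35, Slc1a7 and Slc43a1 were higher and Slc7a4 and Slc38a5 lower at that p, and the smallest adjusted p in limma was 0.264. Of all 11001 named genes near background, 678 were higher and 216 lower at that p.

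Genes that work beside the transporters were given from 6 lists, whose measured members are all counted here; an unadjusted p under 0.05 was reached by 6.97% of all named genes with a higher level and 7.91% with a lower one (7.70% and 13.3% of those above background). Of 14 transporters outside the 7 families, 0 passed, and 4 were lower and 0 higher at an unadjusted p under 0.05 (median −0.054). Not all of these 14 are known as amino acid carriers. For example, Slc17a9 is known for nucleotides and Slc29a3 for nucleosides. Ctns, the lysosomal cystine exporter, went from 5.91 ± 0.067 to 5.65 ± 0.094 (SD, n = 3; log2 difference −0.26 ± 0.072, SE; limma's adjusted p = 0.186). The other 3, named after their values were seen, were Slc17a9, Slc15a4 and Slc17a5, with differences of −0.30, −0.19 and −0.26. Of the carriers of the same list that are known from lysosomes and related organelles, Slc66a1 (0.11), Slc29a3 (−0.035) and Mfsd12 (−0.13) overlapped between groups. Of 14 genes listed as mitochondrial amino acid carriers, 0 passed, and 2 were higher and 4 lower at that p (median −0.018). Of 29 genes of amino acid sensing upstream of mTORC1, 0 passed and 0 reached an unadjusted p under 0.05 in limma, with 20 negative and a median of −0.061.

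The response to amino acid shortage was the only list of the 6 with genes past the test. Of 16 GCN2 and ATF4 response genes, 0 passed with a higher level and 2 with a lower one, beside 0.254% and 0.198% of all named genes. Ddit4, an inhibitor of mTORC1 signalling, went from 6.81 ± 0.018 to 5.81 ± 0.17, and Stc2, a secreted glycoprotein gene, from 7.73 ± 0.011 to 7.30 ± 0.016 (SD, n = 3; 95% intervals of the log2 difference −1.22 to −0.78 and −0.54 to −0.30; limma's adjusted p = 0.0205 and 0.0353). The list was mixed, with 9 of 16 differences positive. At an unadjusted p under 0.05 in limma, 3 were lower and 2 higher, Nupr1 (0.21) and Ppp1r15a (0.31). Ddit3, the stress factor gene also called Chop, differed by −0.40 ± 0.079 (adjusted p = 0.0999) without passing. Atf4 (0.040 ± 0.052) and its target Asns (0.068 ± 0.058), chosen after their values were seen, overlapped between groups, and the list's median was 0.025. In the same samples the transporters that ATF4 is known to raise had differences from −0.28 (Slc1a4) to 0.13 (Slc7a5), with Slc3a2, Slc38a2 and Slc7a1 between, as given above.

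The 2 remaining lists were mixed. Of 17 genes of glutamine and branched-chain amino acid metabolism, 0 passed, and 1 was higher and 2 were lower at an unadjusted p under 0.05 (median −0.0085). Gclm, a subunit of the enzyme that starts glutathione synthesis, differed by −0.32 ± 0.059 (limma's adjusted p = 0.0937). Of 10 genes that regulate the turnover and trafficking of transporters, 0 passed and 2 were higher and 2 lower at that p (median 0.0049). Txnip, an arrestin-like regulator of nutrient carriers, differed by 0.29 ± 0.058 (limma's adjusted p = 0.106).

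**Figure D4:**
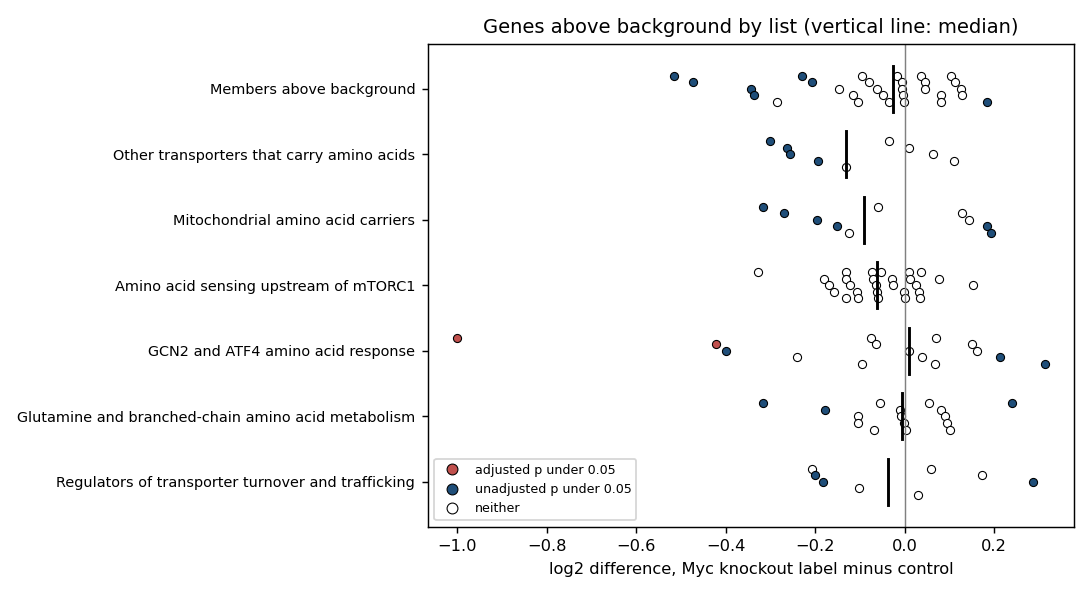
log2 difference, arrays labelled Myc knockout minus control (x axis), of each gene above background in the transporter families and in the 6 lists (y axis); red points had an adjusted p under 0.05, blue points an unadjusted p under 0.05, and vertical lines are medians. The 2 red points are Ddit4 and Stc2, and no transporter gene is red.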

How the data were processed

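Samples (3 arrays for each genotype, Affymetrix, total RNA) were grouped by title. The deposited values are on a log2 scale and were made by RMA, per the submitters' processing notes, which also name limma 3.14.4. RMA equalises the arrays' distributions, which hides any shift common to all genes. For the array version, probe set definition and build: not given in the sources used here. Of 25206 probe sets, 23185 had 1 gene symbol, 0 several and 2021 none; no gene had more than 1. All 65 transporter genes were found in the RefSeq gene table.

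Differences (arrays labelled Myc knockout minus control) were fitted over all 23185 genes with limma 3.58.1 in R 4.3.3 (lmFit, eBayes, no covariate), two-sided, with Benjamini-Hochberg adjustment; a gene passed at an adjusted p under 0.05. Errors of differences are SE, intervals 95%. Permuting the arrays exactly gave a two-sided p of 0.1 for Myc, which is the smallest possible with 3 a group. The fit was tested on simulated data. All genes above background were named, near-background ones at an unadjusted p under 0.01 or beside the level, and list genes at an unadjusted p under 0.01; others named were chosen after their values were seen. Members and lists were chosen with earlier results of these data known. Figures used matplotlib 3.10.9. Arrays carry no read depth; their number limits the precision.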

Additional observations from a re-analysis of the deposited data

How the results depend on the processing

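Without the 3 opposite-strand genes, a choice made after seeing the data, 29 genes were above background; the median of all genes as the cutoff gave 28 and the 99th percentile of receptor genes 24. The number of transporter genes past the threshold was 0, but 1 under median centring, 2 with an intensity trend, 3 without dim genes and 3 at an adjusted p under 0.1; it was 0 under each left-out array, cyclic loess, array weights, all probe sets and the replicate block. Genes above background higher at an unadjusted p under 0.05 numbered 0 under median centring and with the replicate block, 2 under cyclic loess and without dim genes, 4 with an intensity trend and 0 to 2 without single arrays; lower ones numbered 3 to 6 without single arrays and 5 or 6 otherwise. Their median was −0.051 under median centring and −0.056 to 0.0046 without single arrays. Shares of all named genes called under the altered fits are not given here, so these counts do not single out the transporter genes. Myc passed only without dim genes (difference 0.36, limma's adjusted p = 0.0487). Slc6a5 passed under median centring (−0.50; limma's adjusted p = 0.0396).

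Signs turned for 10 of 34 genes, none with an unadjusted p under 0.05, and the cause was not tested. Under cyclic loess Slc6a8 was at 0.029, Slc38a1 at 0.0044, Slc6a3 at 0.0011 and Slc1a5 at 0.0059, and under array weights Slc38a1 was at 0.0011 and Slc1a5 at 0.0016. Without single arrays the ranges were −0.021 to 0.016 (Slc6a8), −0.014 to 0.012 (Slc38a1), −0.11 to 0.14 (Slc6a3), −0.065 to 0.025 (Slc6a4), −0.064 to 0.092 (Slc1a5), −0.14 to 0.023 (Slc38a7), −0.24 to 0.032 (Slc7a14), −0.20 to 0.035 (Slc7a8), −0.021 to 0.064 (Slc38a6) and −0.080 to 0.040 (Slc7a10). Same-numbered arrays of the groups did not deviate together (correlations −0.070, −0.012 and −0.018 over all genes). With so few arrays in a group, these correlations cannot decide whether same-numbered arrays shared a culture or a processing day. With the replicate block 0 genes passed and 6 were lower.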

Other observations

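Exact repeats of a value were common in the deposited table. Among the 30 transporter genes above background, 9 had the same log2 value, to the last digit, on at least 2 of the 6 arrays, as did 28.5% of all named genes above background; near background it was 19 of 35 genes and 50.2%. Slc38a6 stood at 4.11 on 4 arrays, Slc6a8 at 4.30 on 4, Slc38a8 at 4.41 on 3 and Slc6a17 at 3.39 on 3. Slc7a10 and Slc6a20a shared the value 3.07 on several arrays.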
